A study of Mus musculus with 10 samples.

Results

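The mouse olfactory receptor genes (Olfr) and the vomeronasal receptor genes (Vmn1r and Vmn2r) are examined here as a background for IKZF2 CUT&RUN in leukaemia cells. A region belonged to them when it lay within 5 kb of the span of a protein-coding RefSeq gene whose symbol starts with Olfr, Vmn1r or Vmn2r, on an autosome and outside chromosome 4 from 3 to 60 Mb. This gave 815 of the 151133 regions of the series, 536 nearest to an Olfr gene, 116 to a Vmn1r gene and 163 to a Vmn2r gene. They lay around 1445 receptor genes, namely 1093 Olfr, 229 Vmn1r and 123 Vmn2r genes. The choice used gene names and positions only, and no read count.

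The samples were RN2 cells, a mouse leukaemia with the MLL-AF9 fusion and NRASG12D on a C57BL/6 background, which carried a retrovirus for murine IKZF2 and RFP and had been sorted and grown for 2 weeks. All groups share this forced IKZF2. In CUT&RUN an antibody tethers a nuclease to chromatin in permeabilised cells and the released DNA is sequenced. The 6 samples used here were 3 libraries with an anti-IKZF2 antibody, each with 2 technical replicates, and 4 samples with a control rabbit antibody are not analysed here. Whether the libraries stem from different cultures is not stated, so p-values here measure only the spread between these samples, which may be technical. Reads in regions ran from 273896 to 326440 per sample in technical replicate 1 and from 1296355 to 1755015 in technical replicate 2, and replicates were summed to 1 value per library.

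Odorant receptors are G protein-coupled receptors of the olfactory sensory neurons in the nose. Each such neuron expresses a single receptor gene and keeps the rest of this very large family in compact, repressed chromatin. The vomeronasal receptors serve pheromone sensing in the vomeronasal organ, where Vmn1r receptors work with the G protein subunit encoded by Gnai2 and Vmn2r receptors with that encoded by Gnao1. Outside the sensory tissues the clusters are, as a rule, silent, which makes them a natural yardstick for signal that does not depend on active promoters. No expression data are used here, so the silence of these genes in RN2 cells was not checked.

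A region touched 26 of 1256 receptor promoter windows (2.07%; 95% Wilson interval 1.42 to 3.02%), against 26.8% of the windows of other genes. The sequences below show what lies at the annotated start of receptor genes. They are RefSeq windows of build GRCm38.p6, from 250 bases before to 50 bases after the annotated start, printed along the strand of the gene. In the first 4, which have the highest signal among windows that share more than a few bases with a region, capitals mark the bases inside the region, to within 1 base at its start. Olfr480 is at chr7:108066746-108067045, minus strand, Olfr1016 at chr2:85800219-85800518, minus strand, Olfr796 at chr10:129608430-129608729, minus strand, and Vmn1r206 at chr13:22620986-22621285, minus strand.
Olfr480: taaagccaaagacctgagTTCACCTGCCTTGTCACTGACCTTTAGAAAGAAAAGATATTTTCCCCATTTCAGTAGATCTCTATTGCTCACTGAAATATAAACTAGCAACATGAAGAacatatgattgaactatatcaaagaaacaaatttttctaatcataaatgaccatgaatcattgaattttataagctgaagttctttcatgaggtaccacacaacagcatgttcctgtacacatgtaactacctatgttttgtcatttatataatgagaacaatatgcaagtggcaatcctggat
Olfr1016: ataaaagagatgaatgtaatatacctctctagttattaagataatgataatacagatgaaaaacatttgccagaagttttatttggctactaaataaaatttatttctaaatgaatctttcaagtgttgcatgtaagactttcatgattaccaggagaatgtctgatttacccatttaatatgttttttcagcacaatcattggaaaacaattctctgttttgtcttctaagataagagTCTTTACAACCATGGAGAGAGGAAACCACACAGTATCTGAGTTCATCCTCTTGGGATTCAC
Olfr796: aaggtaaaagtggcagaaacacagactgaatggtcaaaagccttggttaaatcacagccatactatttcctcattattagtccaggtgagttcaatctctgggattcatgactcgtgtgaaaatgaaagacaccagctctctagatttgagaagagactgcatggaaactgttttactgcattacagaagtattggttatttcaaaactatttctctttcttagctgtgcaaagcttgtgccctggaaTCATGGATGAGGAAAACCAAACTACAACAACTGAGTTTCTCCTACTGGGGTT
Vmn1r206: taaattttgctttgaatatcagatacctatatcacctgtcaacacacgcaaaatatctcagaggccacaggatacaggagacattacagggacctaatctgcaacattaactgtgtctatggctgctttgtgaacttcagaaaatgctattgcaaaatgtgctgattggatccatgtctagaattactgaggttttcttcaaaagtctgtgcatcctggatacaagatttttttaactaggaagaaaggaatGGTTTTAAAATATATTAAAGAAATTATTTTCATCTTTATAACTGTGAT
The next 3 belong to the first gene by symbol in each family that has a RefSeq window and no region within 5 kb, and capitals mark the letters TGGGAA or their reverse complement TTCCCA, a core of motifs bound by Ikaros family proteins. Olfr10 is at chr11:49317298-49317597, plus strand, Vmn1r1 at chr1:182158049-182158348, minus strand, and Vmn2r10 at chr5:109006387-109006686, minus strand.
Olfr10: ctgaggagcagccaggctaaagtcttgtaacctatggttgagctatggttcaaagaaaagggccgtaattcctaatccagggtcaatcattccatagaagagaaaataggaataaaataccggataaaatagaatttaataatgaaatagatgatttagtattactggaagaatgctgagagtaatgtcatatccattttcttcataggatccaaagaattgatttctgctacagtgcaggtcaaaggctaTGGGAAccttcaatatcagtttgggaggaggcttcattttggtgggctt
Vmn1r1: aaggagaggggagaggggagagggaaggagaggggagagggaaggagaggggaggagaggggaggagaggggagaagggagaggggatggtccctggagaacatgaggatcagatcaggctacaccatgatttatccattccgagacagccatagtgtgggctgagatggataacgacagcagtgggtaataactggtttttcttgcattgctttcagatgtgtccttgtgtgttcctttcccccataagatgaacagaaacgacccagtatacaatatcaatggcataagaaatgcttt
Vmn2r10: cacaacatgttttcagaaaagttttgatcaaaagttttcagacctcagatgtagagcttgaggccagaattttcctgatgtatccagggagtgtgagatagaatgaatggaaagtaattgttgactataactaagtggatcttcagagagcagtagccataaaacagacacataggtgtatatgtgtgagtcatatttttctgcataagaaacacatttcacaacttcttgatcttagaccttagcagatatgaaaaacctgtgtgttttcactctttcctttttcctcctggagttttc

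Receptor gene starts were poor in CG letters and no richer in the searched letters than other starts. The median GC content of the receptor windows was 35.7% (quartiles 32.3 to 39.3%), against 57.7% (50.3 to 65.3%) for the windows of other genes, and 394 of 1256 (31.4%) held no CG at all, against 2.63% of other windows. TGGGAA or TTCCCA occurred in 291 of 1256 receptor windows (23.2%), in 4491 of 18534 windows of other genes (24.2%) and in 24.2% of all windows of this length. By family the share was 22.0% for Olfr, 25.7% for Vmn1r and 28.2% for Vmn2r. Of the 26 receptor windows with a region 5 held the letters, and of the windows printed above Olfr10 alone does, once. A match is a string of letters and not a binding site.

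Regions were sparse around the receptor genes. There were 41.7 regions per Mb of receptor gene windows (95% Poisson interval 38.9 to 44.7; 815 regions in 19.5 Mb), against 72.6 per Mb (72.1 to 73.1; 78705 regions in 1084 Mb) for all other autosomal protein-coding genes, a ratio of 0.575. Sequence more than 50 kb from any protein-coding gene held 40.5 per Mb (40 to 40.9), which lies inside the receptor interval. The 3 families had overlapping intervals, with 43.1 per Mb for Olfr (39.5 to 46.9), 43.5 for Vmn1r (36.0 to 52.2) and 36.9 for Vmn2r (31.4 to 43.0). All intervals here cover counting error only. The 6 samples share 1 region set, so this density has no replicate and no test.

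**Figure D1:**
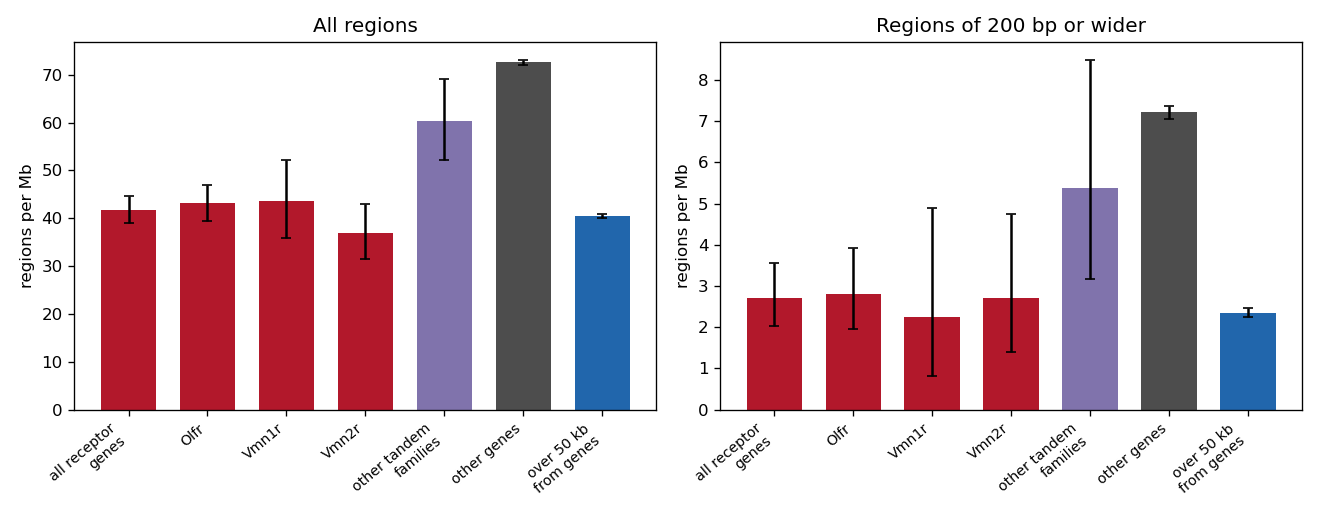
Regions per Mb for all regions and for regions of 200 bp or wider, by class, with 95% Poisson intervals as error bars. The receptor bars (41.7 and 2.71 per Mb) stand at the height of sequence far from genes (40.5 and 2.35) and below other genes (72.6 and 7.21).

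The receptor windows also held fewer regions than the windows of other tandem gene families (taste, trace amine and keratin genes, beta-defensins, major urinary proteins and skin barrier genes). Those 262 genes had 60.2 regions per Mb (52.2 to 69.1), so the receptor density was 0.693 times theirs. Receptor genes are short, with a median annotated span of 951 bp, and among genes with spans under 10 kb the contrast with other genes was wider. There the density was 42.7 per Mb around 1307 receptor genes and 99.2 per Mb around 5938 other genes, a ratio of 0.430.

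Most receptor genes had no region at all. A region within 5 kb was present for 580 of 1445 receptor genes (40.1%; Wilson interval 37.6 to 42.7%), against 87.7% of other genes. At spans under 5 kb the shares were 36.4% for receptor genes and 65.8% for other genes. Vmn2r genes, which have large extracellular domains and several exons and a median span of 24544 bp, had a region in 67.5% of cases, against 37.7% of Olfr and 37.1% of Vmn1r genes. Their density per Mb was not above that of the other families. Vmn2r1 had the most regions, 14 along a span of 142676 bp, followed by Olfr183, Vmn2r2, Vmn2r91 and Olfr687 with 5 each. Vmn2r1 and Vmn2r2 overlap on chromosome 3, and their 5 regions in common are counted for both.

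Within receptor loci the gene body and its flanks had overlapping densities. Inside the gene span there were 42.9 regions per Mb (37.7 to 48.6; 244 regions), against 41.3 (38.0 to 44.8; 571 regions) in the 5 kb flanks. Around other genes the values were 70.5 inside spans and 88.9 in the flanks. Around the annotated start of 1251 receptor genes, 110 region centres lay within 1 kb, or 87.9 per 1000 genes (72.3 to 106), and their density per kb was 1.08 times that between 1 and 5 kb. For 14978 other genes there were 456 per 1000 genes (446 to 467), a density 2.64 times that between 1 and 5 kb. In the 0.5 kb just upstream of the start, receptor genes had 19.2 regions per 1000 genes (12.3 to 28.5) and other genes 268 (260 to 276). In the next 0.5 kb downstream they had 29.6 (20.8 to 40.8) and 81.1 (76.6 to 85.8). The receptor value was lowest from 1 to 0.5 kb upstream, at 12 (6.71 to 19.8), and highest in the step just downstream. These steps are named because they are the extremes of the profile, so a comparison of their intervals cannot decide whether they differ.

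**Figure D2:**
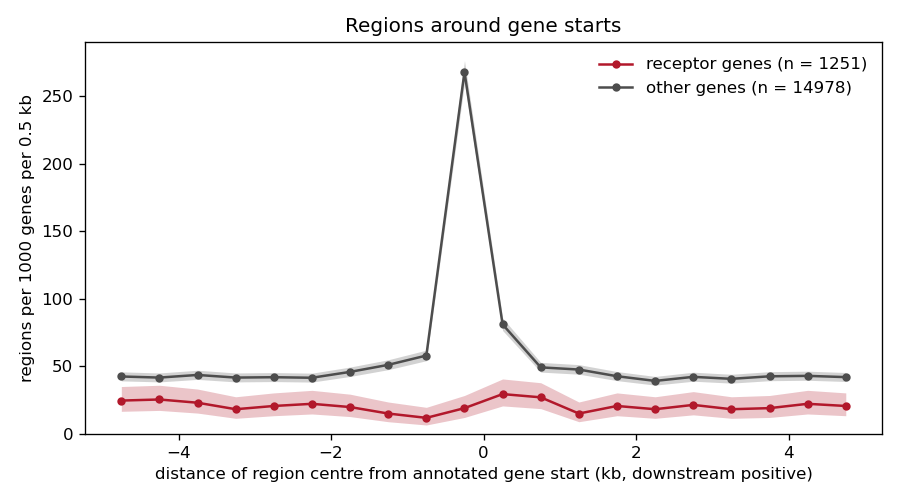
Region centres per 1000 genes in 0.5 kb steps around the annotated gene start, with 95% Poisson intervals shaded. Receptor genes lie between 12 and 29.6 per 1000 genes, lowest at 1 to 0.5 kb upstream and highest just downstream of the start, while other genes peak at 268 just upstream of it.

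Many receptor gene models begin at a start codon, so their annotated start need not be a transcription start. The first letters of the gene were ATG in 957 of 1256 receptor windows (76.2%), against 3.04% of other windows. The 295 receptor genes whose model begins otherwise had 98.3 regions per 1000 genes within 1 kb (65.8 to 141), and the 956 that begin with ATG had 84.7 (67.3 to 105.3). Their densities per kb within 1 kb were 1.14 and 1.06 times those between 1 and 5 kb.

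Density varied among the 32 clusters of 10 or more receptor genes, which hold 1312 of the 1445 genes. It ran from 18.3 to 116 regions per Mb with a median of 42.9, and lay below the value of other genes in 30 of 32 clusters. In 19 of 32 the upper bound of the Poisson interval was below it too. The densest were a cluster of 19 Olfr genes on chromosome 7 from Olfr522 to Olfr541 (116 per Mb; 75.8 to 170), a cluster of 19 Olfr genes on chromosome 11 from Olfr1396 to Olfr1380 (89.1; 54.4 to 138) and one of 13 Olfr genes on chromosome 4 from Olfr62 to Olfr1328 (68.5; 32.8 to 126). The sparsest were 20 Olfr genes on chromosome 6 from Olfr458 to Olfr47 (18.3; 4.99 to 46.9), a mixed Vmn2r and Vmn1r cluster on chromosome 7 from Vmn2r46 to Vmn1r71 (18.3; 5.96 to 42.8) and an Olfr and Vmn2r cluster on chromosome 7 from Olfr291 to Vmn2r79 (18.6; 9.63 to 32.5).

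The 2 clusters with most genes, named for their size after their values were seen, lay below and near the median. The cluster of 222 Olfr genes on chromosome 2 from Olfr987 to Olfr1274 had 26.1 regions per Mb (20.1 to 33.3). The cluster of 126 Olfr genes on chromosome 7 from Olfr543 to Olfr692, which holds the class I receptors, had 43.4 (33.1 to 55.8). Space between receptor genes, inside the clusters but more than 5 kb from any protein-coding gene, held 38.2 regions per Mb (35.9 to 40.6), and the gene windows of the same clusters held 38.8 (35.9 to 41.9). These 2 intervals overlap.

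The density of a cluster went with that of the sequence beside it. The 500 kb on either side of the clusters held a median of 67.2 regions per Mb (19.2 to 125), and 28 of 32 clusters had fewer regions per Mb than their own flanks. Over the 32 clusters Pearson's r between cluster and flank density was 0.63 and Spearman's rho 0.60, given as a description, since neighbouring clusters on a chromosome can share flanks. The densest cluster on chromosome 7 had flanks at 125 per Mb with 44 other genes within 500 kb. The sparse cluster from Vmn2r46 to Vmn1r71 had flanks at 19.2 with 6 other genes. Many receptor genes have near-identical copies, and how reads that map to several places were treated is not given in the sources used here, so the part of mappability in these densities was not tested.

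**Figure D3:**
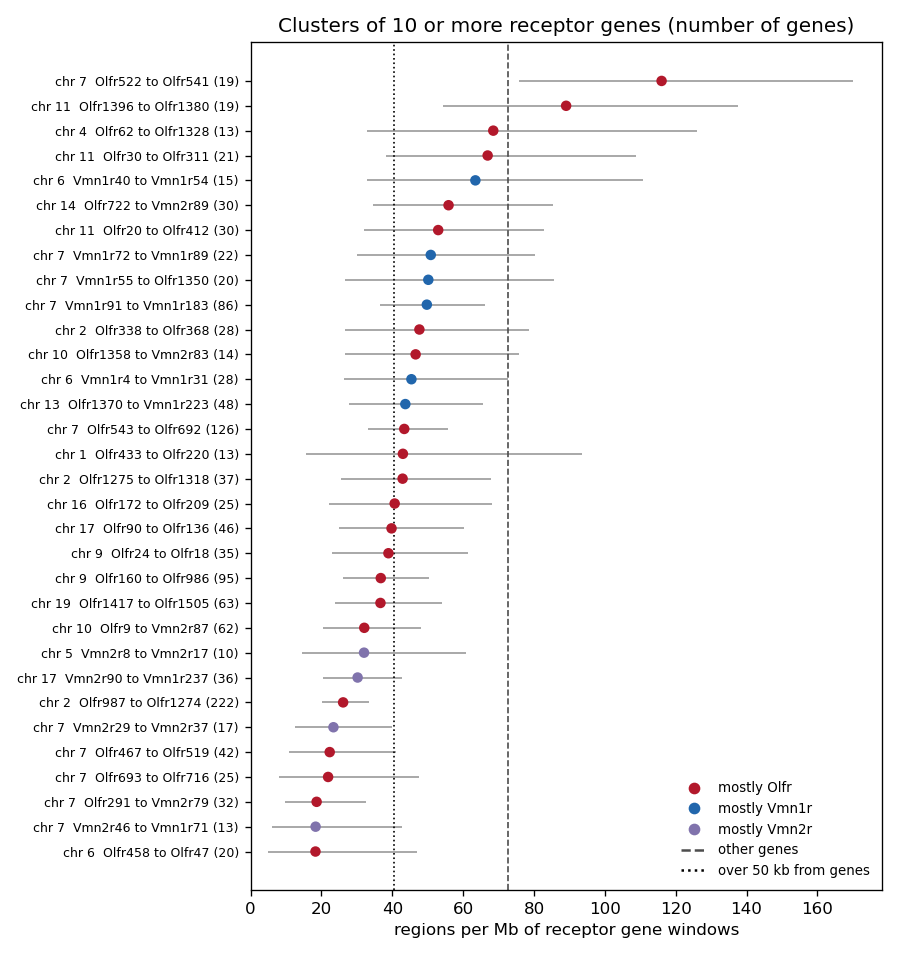
Regions per Mb of receptor gene windows in each cluster of 10 or more receptor genes, with 95% Poisson intervals as lines and the number of genes in parentheses. Of the 32 points, 30 lie left of the dashed line for other genes (72.6 per Mb) and they scatter around the dotted line for sequence over 50 kb from genes (40.5).

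Receptor gene regions were narrow. Their median width was 106 bp (quartiles 97 to 131.5, range 90 to 381), against 109 bp (98 to 146) near other genes and 106 bp (97 to 129) far from genes. The share of 200 bp or wider was 6.50% (53 of 815; Wilson interval 5.01 to 8.41%), against 9.94% (9.73 to 10.1%) near other genes and 5.81% far from genes. Counted per Mb, wide regions were rarer by more than narrow ones: 2.71 per Mb against 7.21 near other genes (ratio 0.376), while for narrower regions the ratio was 0.597. The widest Olfr region lay in Olfr1301 on chromosome 2 at 111754642 to 111754942 and had 69.6, 21.2 and 64.1 CPM per kb in libraries 1, 2 and 3 (CPM is the usual count scaled to a common library total of reads in regions, divided here by the width in kb). The widest Vmn1r region was 244 bp, near Vmn1r159, and the widest Vmn2r region was the 381 bp region in Vmn2r1.

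The typical signal of a receptor region was close to that of other regions. Its median over regions was 48.7, 46.3 and 48.9 CPM per kb in libraries 1, 2 and 3 (mean 48.0 ± 1.46, SD, n = 3), against 48.7, 48.5 and 49.8 near other genes (49.0 ± 0.724). The log2 ratio of the medians, receptor over other, was 0 in library 1, -0.07 in library 2 and -0.03 in library 3. The mean was -0.03 ± 0.03 (SD, n = 3; exact two-sided sign-flip permutation p = 0.5). With 3 libraries this test cannot give less than 0.25, and with a log2 ratio of 0 in library 1 not less than 0.5. It therefore cannot decide whether the medians differ. Far from genes the medians were 48.2, 44.8 and 48.5. Only deposited regions are compared, and in each of these classes 100% had a mean of 25 CPM per kb or more. The part of this common lower limit in the closeness of the medians was not tested. The median receptor region held only 10, 8 and 12 reads in libraries 1, 2 and 3. Together the receptor regions held 8368, 7372 and 10339 reads, or 0.489% ± 0.0166 of all reads in regions (SD, n = 3), while they made up 0.539% of the regions. A count of 0 in at least 1 library was found for 33 of them (4.05%).

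The upper tail was where receptor regions fell short. Of 815 receptor regions 59 (7.24%; Wilson interval 5.65 to 9.23%) were in the top 10% of autosomal regions by mean CPM per kb, of which by construction 10% of all 141724 are, against 11.8% (11.6 to 12.02%) near other genes and 6.46% far from genes. In single libraries the shares were 9.69%, 8.10% and 8.22%, against 10.3%, 11.4% and 10.8% near other genes. A mean of 100 CPM per kb or more was reached by 4 receptor regions (0.491%), by 1.86% of regions near other genes and by 0.338% of those far from genes. Weighted to the widths of receptor regions, the share of regions near other genes in the top 10% would be 11.6%. By family the share was 6.34% for Olfr, 4.31% for Vmn1r and 12.3% for Vmn2r (8.09 to 18.2%).

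**Figure D4:**
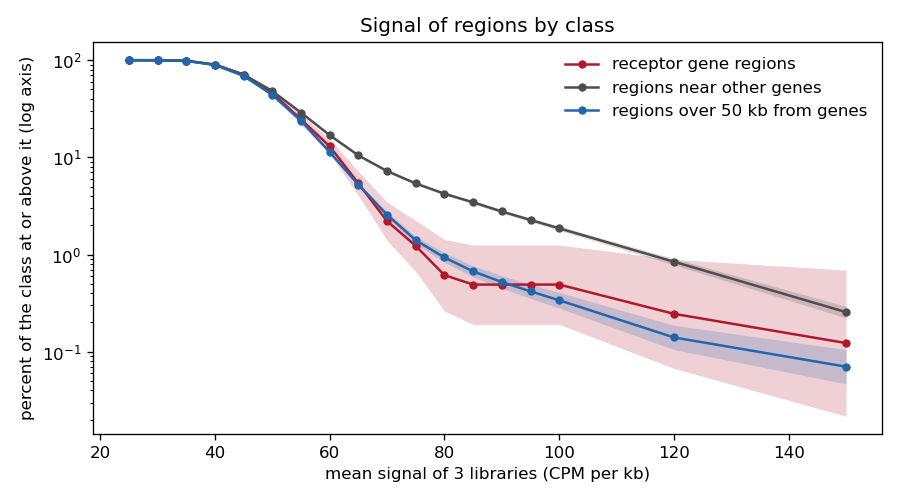
Percent of regions at or above a given mean CPM per kb (log axis), for receptor gene regions, regions near other genes and regions over 50 kb from genes, with 95% Wilson intervals shaded. At 50 CPM per kb receptor regions stand at 46.1%, regions near other genes at 48.1% and regions far from genes at 44.0%, and at 70 receptor regions stand at 2.21%, regions near other genes at 7.23% and regions far from genes at 2.56%.

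Regions high in every library were rare. All 3 libraries placed 2 of 815 receptor regions (0.245%; 0.0673 to 0.890%) in their top 10%, against 0.948% near other genes, 0.174% far from genes and 0.634% of all autosomal regions. The 2 were the highest receptor regions of all. The first, 2915 bp from Vmn2r29 on chromosome 7 at 7209965 to 7210081, had 18, 44 and 30 reads in libraries 1, 2 and 3, or 92.6, 242 and 124 CPM per kb (mean 153 ± 78.5, SD, n = 3). The other, 3968 bp from Olfr460 on chromosome 6 at 40576472 to 40576564, had 16, 22 and 35 reads, or 104, 152 and 183 CPM per kb (146 ± 39.8). Both are narrow, at 116 and 92 bp, and neither is at a gene start.

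Some of the other strong receptor regions were uneven across libraries. The region in Vmn2r117 on chromosome 17 at 23477950 to 23478042 had 36 reads in library 1 and 9 and 12 in libraries 2 and 3 (120 ± 98.8 CPM per kb). The region 4505 bp from Olfr229 on chromosome 9 at 39905185 to 39905300 had 16, 16 and 44 reads (118 ± 56.6), with library 3 the highest. The region 848 bp from Olfr194 on chromosome 16 at 59120916 to 59121011 had 20, 15 and 2 reads (78.8 ± 60.8), with library 3 the lowest. In Vmn2r117 and Olfr194 the SD is over 0.5 of the mean. The region in Vmn2r129, at 84.9 ± 21.2 CPM per kb, was more even, with 16, 9 and 18 reads.

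Among Olfr regions the next highest were near Olfr834 at 79.7 ± 38.2 CPM per kb and in Olfr287 at 75.1 ± 11.9. Olfr287 was even across libraries, with 13, 12 and 12 reads. The lowest Olfr region was near Olfr872 on chromosome 9 at 20264914 to 20265208, at 29.9 ± 13.7, which was also the lowest of all 815. Vmn2r regions continued with Vmn2r129 at 84.9 ± 21.2, Vmn2r115 at 79.9 ± 62.6 and Vmn2r67 at 73.3 ± 30.5, and ended with one near Vmn2r14 at 31.1 ± 9.37.

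The highest Vmn1r region stood below the highest of Olfr and Vmn2r, which have more regions (116 Vmn1r, 536 Olfr and 163 Vmn2r). The upper quartile of mean CPM per kb was 54.6 for Vmn1r, 54.3 for Olfr and 56.8 for Vmn2r. The highest Vmn1r region, 3000 bp from Vmn1r157 on chromosome 7 at 22765590 to 22765689, had 4, 20 and 16 reads and stood at 76.8 ± 52.3 CPM per kb. It was followed by regions near Vmn1r32 (71.8 ± 36.7), Vmn1r184 (71.0 ± 47.0), Vmn1r51 (68.3 ± 33.6) and Vmn1r181 (65.9 ± 47.5). The lowest, in Vmn1r159, stood at 33.6 ± 31.6 with 5, 3 and 23 reads. The SDs of most of these exceed the gaps between neighbours in the order, so the order is a description.

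The regions at gene starts, printed above, were ordinary by these measures. The region over the start window of Olfr480 had 18, 2 and 11 reads (59.5 ± 49.0 CPM per kb) and that of Olfr1016 12, 6 and 13 (59.2 ± 17.8). That of Olfr796 had 15, 10 and 2 reads (57.1 ± 42.9) and that of Vmn1r206 20, 0 and 7 (54.8 ± 66.2). All 4 lay below the top 10% limit of 63.7 CPM per kb. The highest region to touch a receptor start window, that of Vmn2r115, shared 8 bases with it and is not printed. At 79.9 ± 62.6 CPM per kb that region lay above the limit.

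Libraries did not rank the receptor regions alike. Across the 815 regions Pearson's r of log2(CPM + 0.5) was -0.14 between libraries 1 and 2, -0.15 between 1 and 3 and -0.21 between 2 and 3, against 0.06, 0.03 and 0.04 near other genes and -0.13, -0.15 and -0.15 far from genes. These are descriptions across regions that share library and depth. The median receptor region held only 10, 8 and 12 reads in libraries 1, 2 and 3, and all 815 had a mean of 25 CPM per kb or more. The part of low counts and of this lower limit in r was not tested. A region's highest library held a median of 49.1% of its summed CPM in receptor loci and 48.8% near other genes. Receptor regions were highest in library 1 in 282 cases, in library 2 in 261 and in library 3 in 272. Technical replicates of a library agreed more, with r from 0.09 to 0.19 over receptor regions.

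Taken within 4 width classes and averaged with the shares that receptor regions have in them, the mean r was -0.27 for receptor regions, -0.17 near other genes and -0.27 far from genes. The classes were 90 to 99, 100 to below 150, 150 to below 200, and 200 bp or more. In regions of 200 bp or wider the mean r was -0.19 over 53 receptor regions (-0.29 to -0.10 in the 3 pairs), against 0.33 over 7820 regions near other genes (0.31 to 0.34) and -0.05 over 1907 far from genes. None of the 53 wide receptor regions was in the top 10%, against 18.1% of wide regions near other genes and 3.88% of those far from genes. With 53 regions, 0 cannot be told apart from a share as low as that far from genes.

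**Figure D5:**
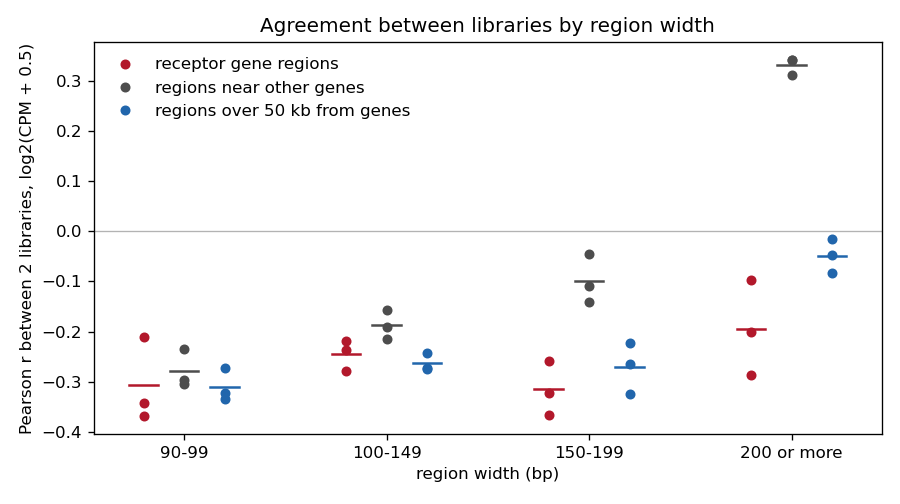
Pearson's r of log2(CPM + 0.5) between each pair of libraries (points) and its mean (line), by region width, for receptor gene regions, regions near other genes and regions over 50 kb from genes. At 200 bp or more the 3 pairs lie between 0.31 and 0.34 near other genes and between -0.29 and -0.10 for receptor gene regions.

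No receptor region was called between technical replicates or libraries. After edgeR's filter on low counts 108 of 815 receptor regions (13.3%) were tested, against 19.7% of regions near other genes. Those that passed had a median width of 159 bp and do not stand for all members. Between technical replicates edgeR's quasi-likelihood test called 0 of the 108 at an adjusted p under 0.05. It called 0.259% of all 27452 tested regions (0.138% higher and 0.12% lower in technical replicate 2). An unadjusted edgeR p under 0.05 was found for 2 of the 108 (1.85%), against 6.86% of all tested regions. DESeq2 was run without that filter on all 815 receptor regions. It called 0, with 19 (2.33%) at an unadjusted p under 0.05. Its default filter of adjusted p by mean count was left on, and how many of the 815 passed it is not given here. Between libraries edgeR called 0 of 108 (0.0146% of all tested regions). Its unadjusted p was under 0.05 for 6 (5.56%), against 4.35% of all tested regions. DESeq2, run as above, called 0 receptor regions between libraries, with 33 of 815 (4.05%) at an unadjusted p under 0.05. The tests between libraries took the spread between technical replicates of the same library as their error. At such low rates of calls over all regions a count of 0 among 108 says little of the receptor regions.

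The lowest p between technical replicates fell to the region in Vmn2r25 on chromosome 6 at 123850498 to 123850591. It had 2, 4 and 5 reads in technical replicate 2, against 6, 10 and 7 in the much shallower technical replicate 1, a log2 difference of -2.69 ± 1.0 (SE; edgeR adjusted p = 0.369). Between libraries it fell to the region in Olfr1419 on chromosome 19 at 11870762 to 11870933, with 4, 9 and 39 reads in libraries 1, 2 and 3 (edgeR adjusted p = 1.0).

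Genes that serve odour and pheromone signalling, a list of mostly longer genes, had more regions than the receptor genes. Of 15 genes of signal transduction 13 had a region within 5 kb, beside 87.7% of other genes. They had 91.4 regions per Mb, against 74.9 for other genes counted per gene window (64.7 to 106 by span class). Of the 15, 9 had a region in the top 10%, beside 39.4% of all autosomal genes. Signal is given for each gene's region with the highest mean, so values of genes with few and with many regions are not alike. Cnga4, a subunit of the olfactory cyclic nucleotide-gated channel, had 1 region, with 179, 202 and 132 CPM per kb in libraries 1, 2 and 3. The highest of 36 regions by Ano2, a calcium-activated chloride channel gene, had 148.8, 366 and 108. The highest of 7 by Gnai2, which is also widely expressed in blood cells, had 148, 267 and 72.3. Omp, the olfactory marker protein gene, had a single region at 37.8 ± 15.6. Trpc2, the vomeronasal channel gene, and the G protein subunit gene Gng13 had none.

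Of 3 genes for transport of receptors to the cell surface, Rtp1 had no region and Rtp2 had 1, at 54.4 ± 24.4. The highest of 8 by Reep1 stood at 82.7 ± 93.4. Of 13 regulators of receptor choice and silencing, 12 had a region, beside 87.7% of other genes. A region in the top 10% was present for 7 of the 13, beside 39.4% of all autosomal genes. By the highest region of each gene Cbx5, a heterochromatin protein gene, led with 135, 185 and 119 CPM per kb. The lowest by the same measure were Kdm1a, a histone demethylase gene, at 47.1 ± 27.9, and Ehmt2, a histone methyltransferase gene, at 47.9 ± 13.1. Emx2, a homeobox regulator of receptor genes in sensory neurons, had none. Over all receptor genes 56 of 1445 (3.88%) had a top 10% region within 5 kb, against 42.1% of other genes, which are longer.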

How the data were processed

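The deposited tables give a raw count of reads per region for 6 anti-IKZF2 samples over a region set common to all, per the file headers. The values are whole numbers with a different total in each sample, so they were taken as not normalized. Coordinates are mm10. The submitters' processing notes list Bowtie2 2.3.3.1 with MACS2. Which samples the regions were called on, and at what threshold, is not given in the sources used here. Starts are printed as deposited, and whether they count from 0 or 1 is not stated. Region numbers run to 153953 with 2820 unused. At most 40 of those could fall in receptor windows, which would raise the density there to 43.8 per Mb. Of receptor region counts of 10 or more in technical replicate 2, 58.7 to 59.9% were even, so reads may not be independent. All intervals cover counting error only.

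Genes were protein-coding RefSeq entries on GRCm38.p6, whose coordinates are those of mm10. Of 1445 receptor genes 1251 had a RefSeq promoter window. Receptor regions took precedence where another gene was also within 5 kb (23 regions). Just inside the 5 kb limit (4 to 5 kb) 129 regions had a median of 49.8 CPM per kb, and just outside (5 to 6 kb) 102 had 51.1. Technical replicates, which the labels make part of the same CUT&RUN, were summed. The families of other tandem genes, the gene lists and the members were chosen with earlier results of these data known.

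Named regions were, per family, the 5 highest, the lowest and the widest, those in the top 10% in all libraries and any called by edgeR. Genes with most regions and the 3 densest and 3 sparsest clusters (receptor genes under 500 kb apart) were named too. Counts were tested with edgeR 4.0.16 (filterByExpr, TMM, glmQLFTest, library as a block, or technical replicate as a term) and DESeq2 1.42.0 in R 4.3.3, over all 151133 regions before filtering, with Benjamini-Hochberg adjustment. The edgeR tests alone were also run on simulated data, with an outcome not reported here. Those samples were drawn independently, unlike technical replicates of the same library, so they do not stand for these data. Other steps used scipy 1.17.1, pandas 2.3.3 and numpy 2.4.6 under Python 3.11.15, with plots by matplotlib 3.10.9. Alternatives changed the window, the width limit, the replicates, the libraries, the scaling and the test. Shares have 95% Wilson and densities 95% exact Poisson intervals.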

Additional observations from a re-analysis of the deposited data

Results flagged for a closer look

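Receptor genes in the segment of chromosome 4 from 3 to 60 Mb, which the rule leaves out, were flagged as signal in data that no comparison used. Around these 13 genes lay 39 regions, or 270 per Mb (95% Poisson interval 192 to 370), against 41.7 per Mb around the receptor genes elsewhere. Their median signal was 52.8 CPM per kb and their highest 155. The whole segment held 155 regions per Mb and the windows of its other genes 196, against 61.9 in the rest of the autosomes. The 7 receptor genes of chromosome X had 2 regions, or 23.7 per Mb (2.87 to 85.7).

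In 3 of 21 named regions a single sample stood far from the other 5 by Dixon's criterion. Chance flags about 1 of 20 groups of like samples. These regions were named for extreme signal or width and the samples differ in depth, so that rate does not apply to them. The region near Vmn2r29 had 441 CPM per kb (14 reads) in technical replicate 1 of library 2, against 75.2 to 199.5 elsewhere, with a gap of 0.66 of the range. The region near Vmn2r115 had 363 (10 reads) in technical replicate 1 of library 1, against 0 to 103, with a gap of 0.717. The widest region, in Vmn2r1, had 0 reads in technical replicate 1 of library 3, against 38.3 to 61.3 CPM per kb, with a gap of 0.625. All 3 samples are of the shallow technical replicate 1.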

How the results depend on the processing

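The low density held in direction under every window tried. The ratio to other genes was 0.435 in windows around gene ends only, 0.376 on regions of 200 bp or wider (2.71 receptor regions per Mb) and 0.430 for spans under 10 kb, a setting chosen after seeing the data. The log2 ratio of median signal was -0.28 on regions of 200 bp or wider, 0.029 in technical replicate 1 only and -0.095 without division by width, and without 1 library each it ran from -0.05 to -0.01. The share in the top 10% was 0 on regions of 200 bp or wider, 10.4% in technical replicate 1 only, and 7.61 to 8.83% without 1 library each. The mean r between libraries was -0.13 with 20 kb windows and -0.0017 in technical replicate 1 only. The cause of these shifts was not tested. Counts of called receptor regions were 0 with TMM, total reads, no filter, DESeq2, each library left out and no replicate block (0 between technical replicates, 50 of all regions called). Over all regions the count between technical replicates was 71, but 46 without the filter and 18, 0 and 8 without library 1, 2 and 3. Between libraries it was 4, 0 without library 2 and 0 without library 3. A typical receptor region held 1 or 2 reads in a sample of technical replicate 1, so that replicate alone carries little information on single regions.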

Other observations

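The values for other chemosensory receptor families are given without a test. Of 15 trace amine-associated receptor genes (Taar) 7 had a region within 5 kb, at 53.7 regions per Mb, and the highest stood at 56.7 CPM per kb by Taar7e. Of 35 bitter taste receptor genes (Tas2r) 14 had one, at 47.0 per Mb, and the highest stood at 55.8. No gene of either family had a region in the top 10%, where 3.88% of olfactory and vomeronasal receptor genes and 39.4% of all autosomal genes had one, and the number of these genes is too small to set them apart from the receptor genes. Of 7 formyl peptide receptor genes (Fpr), which include vomeronasal members and the neutrophil receptor gene Fpr1, 2 had a region, Fpr1 at 61.6 and Fpr-rs6 at 40.2. There were 3 Tas1r genes for sweet and umami taste. The higher of 2 regions by Tas1r1 stood at 76.8, 214 and 128 CPM per kb in libraries 1, 2 and 3, in the top 10% in 2 of them. Tas1r3 stood at 41.7 and Tas1r2 had no region.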
